A study of Mus musculus with 24 samples.

Results

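The fatty acid elongases and desaturases measured here are 9 genes, Elovl1, Elovl2, Elovl3, Elovl5, Elovl6, Fads1, Fads2, Scd1 and Scd2, taken as every array probe that the scanner files name for them. They were read by 10 of 41174 probes, 2 of them for Elovl5 and 1 for each other gene, and all 10 were among the 27847 probes that passed the filter on dim signals. The livers came from C57Bl/6J mice of 2 genotypes, Mop3fxfx, in which the clock gene Arntl (also called Mop3 or Bmal1) carries the floxed allele, and Mop3fxfxCreAlb, which carry the same floxed allele and in addition Cre recombinase driven by the albumin promoter, active in hepatocytes. They are called floxed and Cre livers here. Mice of 10 and of 20 weeks were kept in 12 h of light and 12 h of dark with free access to food, and livers were collected at 4 h steps, with ZT0 at lights on and ZT20 as the last time. Each of the 24 Agilent 2-colour arrays carried a pool of RNA from 3 or more mice alike in genotype, age and time beside a common reference pool of 10-week livers of both genotypes. There were 12 arrays per genotype, 6 per genotype and age, and no replicate array of the same genotype, age and time. A p-value therefore measures the spread between arrays of different times and ages, and Cre mice without the floxed allele are not part of these groups.

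Fatty acids are lengthened in the endoplasmic reticulum by a cycle whose first, rate-limiting condensation is carried out by an ELOVL enzyme, and double bonds are added by desaturases that draw electrons from cytochrome b5. ELOVL6 lengthens palmitate to stearate, SCD1 and SCD2 place the first double bond in saturated chains, and ELOVL1 and ELOVL3 make very long saturated and monounsaturated chains. FADS2 and FADS1 add double bonds to dietary polyunsaturates, and ELOVL5 and ELOVL2 lengthen them between those steps. In liver, SREBP-1c, LXR and ChREBP are known activators of Scd1, Elovl6 and the Fads genes, polyunsaturates act through PPARA and SREBP-1c on the same set, and Elovl3 is known for a strong daily cycle in mouse liver.

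The probes are 60-base oligonucleotides, of which bases 1 to 30 are given as the files hold them. Those of Elovl3, Scd1 and Scd2 are shown because saturation limits, or likeness among the Scd genes may limit, what they measure. Those of Elovl5 are shown because 2 probes read that gene.
Elovl3 A_51_P324633: ggcctggtaggcgcttaataaatgtctttt
Scd1 A_52_P682382: actcctgggctaagtatctgacagtctcac
Scd2 A_51_P129464: acatttggggatcctctgcagaggagtatt
Elovl5 A_51_P505493: ctcaatacaaaaattataacatttgatagt
Elovl5 A_52_P676944: ctgtagtgctactttgacatacacttcctt
The Scd genes are close copies of each other, and whether these probes also pick up signal from the other Scd genes was not tested.

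The RefSeq promoter table (GRCm38.p6) held entries for 5 of the 9 genes, with 7 start sites in all: Elovl1, Elovl2, Elovl5, Elovl6 and Fads2. The 250 bases before each start were searched on both strands for 4 motifs: the E-box CACGTG, the letters bound by the ARNTL-CLOCK dimer, AGGTCA, the core bound by ROR and REV-ERB receptors, TCACNCCA, the core of a sterol regulatory element, and the CCAAT box. No match overlapped another. Among all 32851 promoters of the table, 6.02% held the E-box, 14% held AGGTCA, 3.67% held TCACNCCA and 33.8% held CCAAT. The E-box was found in 1 member promoter, that of Elovl5, 161 bases before the start. AGGTCA was found before Elovl6, 193 bases from the start on the opposite strand, and before 1 of the 2 Elovl1 starts, 95 bases away. CCAAT was found before Elovl5, 71 and 17 bases from the start, and 35 bases before the other Elovl1 start. TCACNCCA was in none of the 7, and no motif searched was before Elovl2 or Fads2. The Elovl5 and Elovl6 promoters are printed because both genes differed between genotypes in the results that follow and held an E-box or AGGTCA match. Fads2 also differed, but its promoter held no motif searched and is not printed. The E-box of Elovl5 and the AGGTCA match of Elovl6 are in capitals and the CCAAT matches are left in lower case. A match describes the letters only. The Elovl5 promoter lies at chr9:77917115-77917364 on the forward strand and the Elovl6 promoter at chr3:129532136-129532385, also on the forward strand.
Elovl5 promoter: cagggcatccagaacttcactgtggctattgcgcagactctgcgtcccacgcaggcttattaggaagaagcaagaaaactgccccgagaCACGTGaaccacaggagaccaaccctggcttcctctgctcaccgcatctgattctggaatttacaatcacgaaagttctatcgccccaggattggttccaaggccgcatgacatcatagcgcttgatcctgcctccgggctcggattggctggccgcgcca
Elovl6 promoter: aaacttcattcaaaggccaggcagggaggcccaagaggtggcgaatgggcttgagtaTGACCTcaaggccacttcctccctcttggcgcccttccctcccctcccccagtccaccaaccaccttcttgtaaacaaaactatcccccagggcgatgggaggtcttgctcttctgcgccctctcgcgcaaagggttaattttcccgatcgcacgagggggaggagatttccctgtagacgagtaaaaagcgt

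In the labels the liver sample is dyed with Cy3 and the reference pool with Cy5, but within the 6 slides that hold more than 1 array between 79.2 and 97.2% of probes varied more in Cy5, so every ratio is read here against the labels, with Cy5 as sample and Cy3 as reference. The opposite reading would reverse each sign below and move each peak by 12 h; amplitudes and p-values would stay. Arntl checks the genotype labels: its log2 ratio ran from -2.17 over a median of 0.67 to 1.60 in floxed livers and from -0.90 over -0.45 to 0.52 in Cre livers. Its 24 h amplitude was 1.69 in floxed and 0.22 in Cre livers, and the rhythms differed (limma, adjusted p = 0.031). Where the Arntl probe lies relative to the floxed exon is not given in the sources used here. Both ZT0 arrays of 20 weeks were unusually alike: they correlated with each other at r = 0.81 although on different slides and of different genotype. Other pairs of the same age and time were at 0.11 to 0.50. With arrays of their own genotype they correlated at a median of 0.16, which was not the lowest: the 10-week floxed array of ZT16 was at 0.15. The Cre array of the ZT0 pair also had the highest Arntl value of the 12 Cre arrays, 0.52. Results were therefore also computed without this pair. All 5 hepatocyte markers found were above background on all 24 arrays. In bulk liver, fewer cells of a type and less RNA per cell cannot be told apart.

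Averaged over the day and both ages, 5 of the 9 genes differed between genotypes: Elovl3, Scd2 and Elovl5 were higher in Cre livers, and Fads2 and Elovl6 lower. Of all probes tested, 21.7% were called in this comparison (10.6% higher and 11.1% lower), so the share of members called is to be read against a wide background. The median difference of the 9 genes was -0.18 and that of all 18967 genes tested was -0.0047. With median centring of each array in place of loess, 2 of the 9 genes were called (Elovl3 higher and Fads2 lower), and 31.4% of all calls were higher in Cre livers where loess gave 48.9%. With slide as a block, 4 of these 5 genes stayed called in the same direction and Elovl6 did not.

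**Figure D1:**
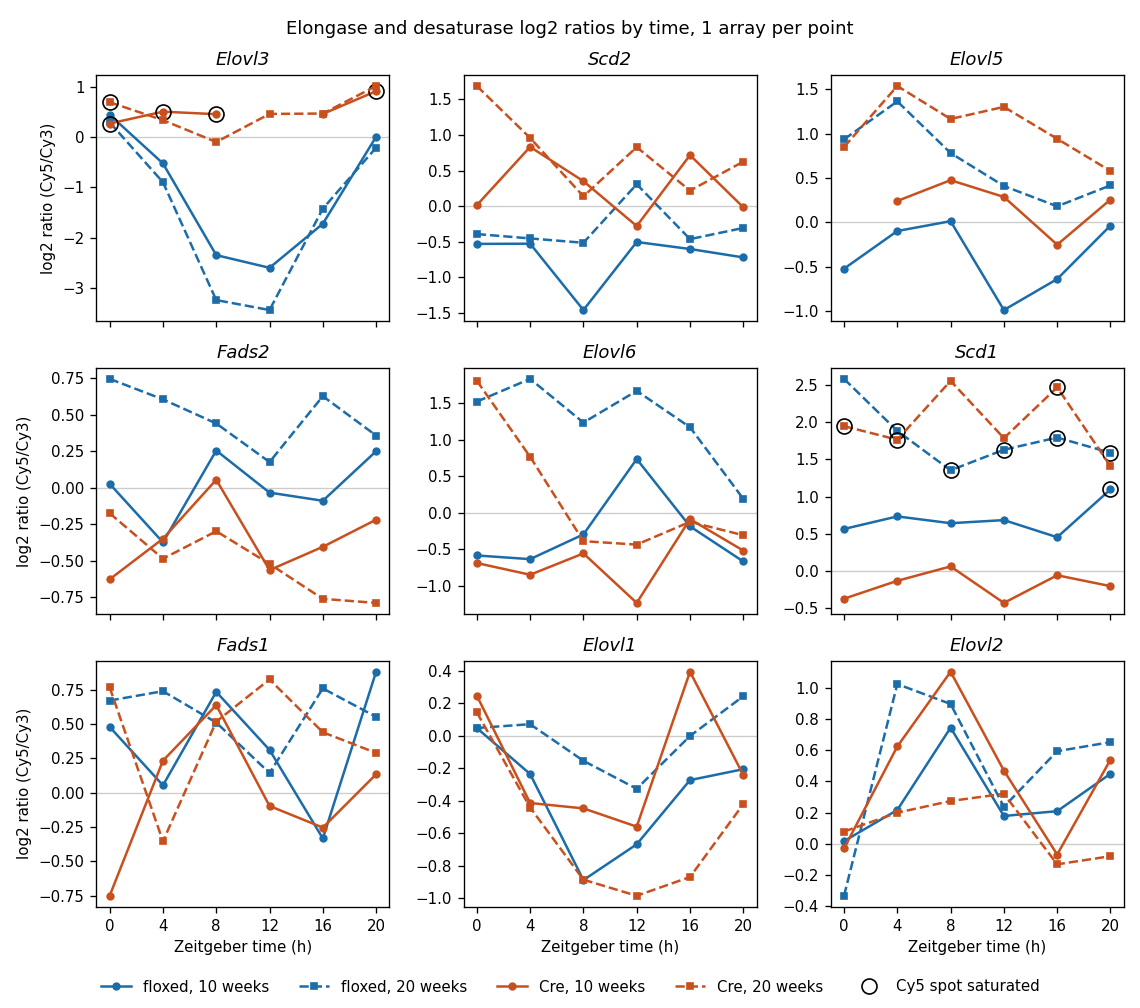
Log2 ratio (sample over reference) of the 9 genes against zeitgeber time in hours, 1 array per point, for floxed (blue) and Cre livers (orange) at 10 weeks (solid, circles) and 20 weeks (dashed, squares); black rings mark a saturated Cy5 spot. Elovl3 falls to -3.44 at ZT12 in floxed livers and stays between -0.10 and 1.01 in Cre livers, and no other gene shows such a separation by time of day.

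Among the enzymes of saturated and monounsaturated chains, Elovl3 had the widest separation. Floxed livers ranged in log2 ratio from -3.44 over a median of -1.16 to 0.44, and Cre livers from -0.10 over 0.46 to 1.01. The low floxed values were those of ZT8, ZT12 and ZT16, and 8 Cre arrays lay above every floxed array. At ZT0 the floxed livers were at 0.44 (10 weeks) and 0.29 (20 weeks) and the Cre livers at 0.26 and 0.69, so the groups met at the time of the floxed maximum. At ZT12 the floxed livers were at -2.60 and -3.44, and the 20-week Cre liver was at 0.46. The 10-week Cre value of ZT12 is missing, since the scanner software marked that spot as an outlier; the ZT12 difference and every fit of Elovl3 use 23 arrays. Over the day Elovl3 was 1.80 ± 0.11 (SE) higher in Cre livers, 3.48-fold with a 95% interval of 2.94 to 4.11 (limma, adjusted p = 3.8e-09), higher in 10 of 11 pairs of the same age and time.

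The Elovl3 cycle was large in floxed livers and small in Cre livers. The fitted 24 h amplitude, from mean to peak, was 1.80 ± 0.11 in floxed livers with a peak at ZT 22.9 ± 0.24 h (adjusted p = 2.3e-07), a trough-to-peak span of 12.1-fold. In Cre livers the amplitude was 0.27 ± 0.11 and was not called (adjusted p = 0.656). The difference between the fitted rhythms had an amplitude of 1.62 ± 0.17 (adjusted p = 0.0012). Among all probes 1.4% were called rhythmic in floxed livers, 0% in Cre livers and 0.0287% for a difference in rhythm; for each of the first and last of these, Elovl3 was the only member called. By time, Elovl3 was higher in Cre livers at ZT8 by 2.97 ± 0.28 (adjusted p = 4.6e-04, where 0.37% of probes were called), at ZT12 by 3.58 ± 0.34 (adjusted p = 3.2e-04, 0.427% called) and at ZT16 by 2.04 ± 0.28 (adjusted p = 0.0087, 0.334% called). At ZT0, ZT4 and ZT20, where 0.0934, 0.115 and 0.104% of probes were called, it differed by 0.11, 1.13 and 1.07 and was not called. No other member was called at any of the 6 times by limma; 2 to 4 members had an unadjusted p under 0.05 at each, as did 6.17 to 12.7% of all probes.

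Saturation bounds the Elovl3 values from above. Its Cy5 spot was saturated on 6 of 12 Cre arrays, 5 of them of 10 weeks, and on no floxed array. Among these is the missing ZT12 spot of 10 weeks, and the other 5 Cre values are lower bounds of the sample signal. The Cre amplitude of 0.27 rests in part on these values. Under the alternatives this amplitude ran from 0.19 to 0.66, the highest under median centring, and was never called. On the 10-week floxed array of ZT8 the Cy3 spot was saturated, so the true ratio there may be lower than -2.35. With saturated spots set to missing, the mean difference was 1.88 (adjusted p = 6.5e-06) and the floxed amplitude 1.83 (adjusted p = 2.8e-05), while the difference in rhythm, 1.46, was no longer called (adjusted p = 0.18). Under median centring the amplitude of that difference was 1.14 (adjusted p = 1), and the ZT8, ZT12 and ZT16 differences of 2.27, 2.83 and 1.63 were not called either (adjusted p = 0.481, 0.348 and 0.822). The ZT16 call also ended without the 10-week floxed array of ZT16 (1.75, adjusted p = 0.0615) or without the 20-week Cre array of ZT16 (1.91, adjusted p = 0.0861). Within slides at matched times of 10 weeks the difference was -0.17 (ZT0), 1.03 (ZT4) and 1.85 (ZT8 and ZT20), and with slide as a block it was 1.75 (adjusted p = 2.7e-05).

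**Figure D2:**
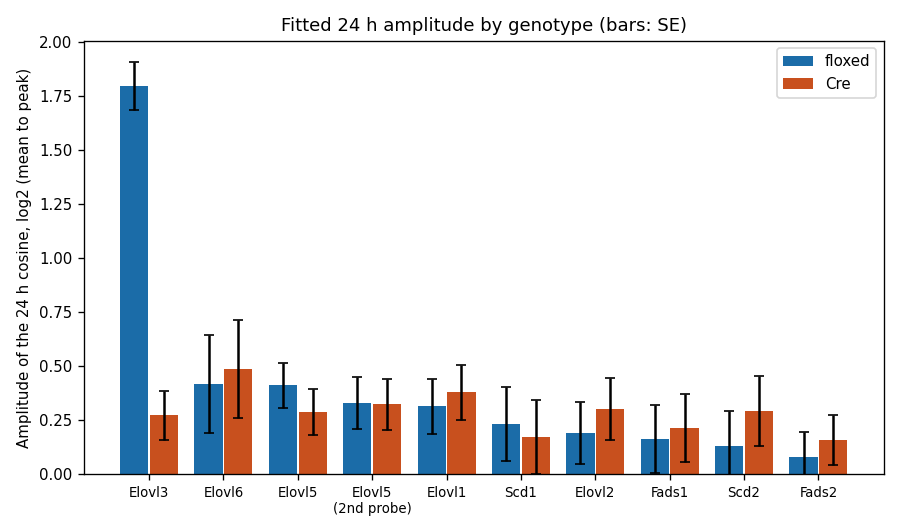
Amplitude of the fitted 24 h cosine (log2, mean to peak, bars with SE) for each of the 10 probes in floxed (blue) and Cre livers (orange). Elovl3 stands at 1.80 in floxed and 0.27 in Cre livers; no other bar exceeds 0.49.

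The other 8 genes had no called rhythm in either genotype. Their floxed amplitudes ran from 0.079 (Fads2) to 0.42 (Elovl6), and their Cre amplitudes from 0.16 (Fads2) to 0.49 (Elovl6). Before adjustment, p was under 0.05 for 2 members in floxed livers (Elovl3 and Elovl5), where 11.6% of all probes had such a p, and for 2 in Cre livers (Elovl1 and Elovl5), where 8.65% of all probes had such a p and none was called by limma. Elovl5 had a floxed amplitude of 0.41 ± 0.10 with a peak at ZT 3.22 (adjusted p = 0.124); it was called with scan date as a block (0.41, adjusted p = 0.0285), with array weights (0.44, adjusted p = 0.0486) and without the 10-week floxed array of ZT0 (0.49, adjusted p = 0.0398). A low amplitude here was not shown to be the absence of a cycle, since 6 times at 2 ages carry each fit.

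Scd2, the desaturase that predominates outside the adult liver, was higher in Cre livers at every age and time. Its log2 ratio ran from -1.46 over -0.51 to 0.31 in floxed livers and from -0.28 over 0.49 to 1.69 in Cre livers. The groups overlapped in a narrow range, with 7 Cre arrays above every floxed array, and at 10 weeks they did not overlap (2.64% of probes did not). Scd2 was 1.02 ± 0.16 higher in Cre livers, 2.03-fold with an interval of 1.60 to 2.57 (limma, adjusted p = 2.2e-04), with the same sign in all 12 pairs, which held for 5.58% of probes. The difference was 0.99 ± 0.24 at 10 weeks (adjusted p = 0.0711, 6 arrays a group, where 2.56% of probes were called). At 20 weeks it was 1.05 ± 0.22 (adjusted p = 0.0086, where 29.5% of probes were called). Over both ages the difference was 0.94 (adjusted p = 6.4e-04) without both 20-week ZT0 arrays and 1.02 (adjusted p = 0.0097) with slide as a block. Within slides at matched times of 10 weeks it was 0.54, 0.79 and 1.26. Under median centring the difference over both ages was 0.81 and not called (adjusted p = 0.0905).

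Markers of other cell types are to be read against the 21.7% of all probes called. Of 5 cholangiocyte markers 2 were called, both higher in Cre livers like Scd2: Spp1 by 1.39 ± 0.17 and Sox9 by 1.06 ± 0.12. The other 3 were not called: Krt7 was at -0.08, Krt19 at -0.08 and Epcam at 0.0056. The summed Cy5 signal of the list, relative to each array's median, ran from 52.2 to 192.5 in floxed and from 139.5 to 627.6 in Cre livers, and no marker of the list was below background on every array. Among stellate cell markers 2 of 5 were higher (Lum by 0.59 and Lrat by 0.57), with sums of 134.4 to 346.5 in floxed and 229.8 to 308.5 in Cre livers. In that list Col1a1 (0.31), Des (0.07) and Dcn (-0.20) were not called. The part of other cell types in the Scd2 difference was not tested.

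Scd1, the main desaturase of adult liver, separated the genotypes at 10 weeks. Floxed livers of 10 weeks ran from 0.46 over 0.66 to 1.10 and Cre livers of 10 weeks from -0.43 over -0.17 to 0.06. The genotypes thus did not overlap, as for 2.64% of all probes at 10 weeks, and no Cre array reached a floxed one. The difference was -0.88 ± 0.13 (limma on the 10-week arrays, adjusted p = 0.0108, where 2.56% of probes were called), and within the 3 slides that hold matched times it was -0.94, -0.99 and -0.94. At 20 weeks the genotypes overlapped, from 1.36 over 1.71 to 2.58 in floxed livers and from 1.41 over 1.87 to 2.56 in Cre livers, with a difference of 0.18 ± 0.22 (adjusted p = 0.571). Over both ages Scd1 was at -0.35 ± 0.17 and was not called (adjusted p = 0.156).

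The Scd1 values of 20 weeks are limited by saturation. At 20 weeks the Cy5 spot was saturated in 5 of 6 floxed livers and in 3 of 6 Cre livers, and at 10 weeks on 1 floxed array and no Cre array. Relative to each array's median, the Scd1 Cy3 signal, read as reference, was 0.635 higher in Cre than in floxed livers at 20 weeks. Its Cy5 signal was 0.39 higher. The part of the Cy3 change in the Scd1 values was not tested. The age by genotype term was 1.07 ± 0.25 (adjusted p = 0.0195, where 9.05% of probes were called). With saturated spots missing the term was 0.064. That fit holds a single floxed array of 20 weeks, that of ZT0 from the pair alike across genotypes, against 3 Cre arrays. It therefore bears little on the term. In the main treatment of saturated spots, the term was not called in the deposited log ratio (0.76, adjusted p = 0.112) or under median centring (0.13, adjusted p = 0.743). Nor was it called with slide (1.26, adjusted p = 0.14) or scan date (0.95, adjusted p = 0.488) as a block. In the fit with saturated spots missing, most of whose arrays are of 10 weeks, the mean difference became -0.77 (adjusted p = 0.0021). The mean difference was also called with slide as a block (-0.76, adjusted p = 0.0464), with scan date as a block (-0.74, adjusted p = 0.0342) and in the deposited log ratio (-0.53, adjusted p = 0.0235).

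**Figure D3:**
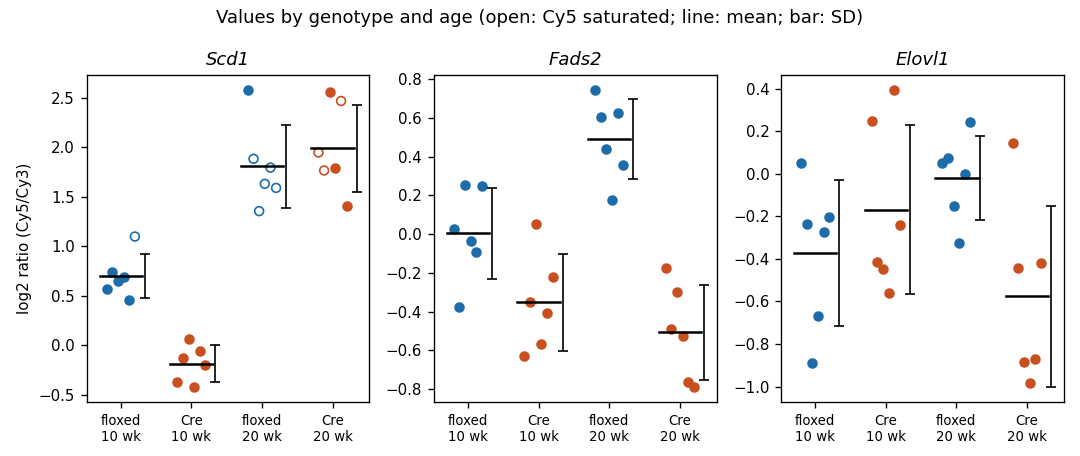
Log2 ratio of Scd1, Fads2 and Elovl1 on each array by genotype and age, points ordered by time from left to right within a group of 6; open points have a saturated Cy5 spot, lines are means and bars SD. Scd1 separates the genotypes at 10 weeks (floxed from 0.46, Cre up to 0.06) and Fads2 at 20 weeks (floxed from 0.18, Cre up to -0.18). Of all probes, 2.64% separate them at 10 weeks and 7.91% at 20 weeks.

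Elovl6, which lengthens palmitate, was lower in Cre livers. Floxed livers ran from -0.67 over 0.46 to 1.84 and Cre livers from -1.24 over -0.41 to 1.81, so the ranges overlapped over most of their width. The high Cre values were those of 20 weeks at ZT0 (1.81) and ZT4 (0.77), and the other 10 Cre arrays were at -0.09 or below. The difference was -0.72 ± 0.23 (limma, adjusted p = 0.029), or 1.65-fold less, with this sign in 9 of 12 pairs, and -0.74 (adjusted p = 0.0142) without both 20-week ZT0 arrays. At ZT12 the Elovl6 difference was -2.04 ± 0.55 and was not called (adjusted p = 0.157). This call was the least stable of the 5: it ended with slide as a block (-0.30, adjusted p = 0.543), with scan date as a block (-0.37, adjusted p = 0.416), under median centring (-0.96, adjusted p = 0.145), at 10 weeks alone (-0.38, adjusted p = 0.433) and on leaving out any of 8 single arrays (adjusted p up to 0.0594). Those were the floxed 20-week arrays of ZT0 and ZT4, the Cre 10-week arrays of ZT0 and ZT4 and the Cre 20-week arrays of ZT8, ZT12, ZT16 and ZT20, with values between -0.69 and -0.61.

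Elovl1, an elongase of very long saturated chains, showed no mean difference that was called (-0.18 ± 0.13, 95% interval -0.45 to 0.089, adjusted p = 0.346). Its values ran from -0.89 over -0.18 to 0.24 in floxed and from -0.99 over -0.43 to 0.40 in Cre livers. The age by genotype term was -0.76 ± 0.20 (adjusted p = 0.0261, where 9.05% of probes were called). The difference was 0.20 ± 0.15 at 10 weeks (adjusted p = 0.643, where 2.56% of probes were called). At 20 weeks it was -0.56 ± 0.09 (adjusted p = 0.0023, where 29.5% of probes were called). At 20 weeks the Cy3 signal of Elovl1, read as reference, was 0.71 higher in Cre than in floxed livers relative to each array's median, and its Cy5 signal was at -0.30; the part of the Cy3 change in this difference was not tested. At 20 weeks most floxed and Cre arrays lie on different slides, and the term was not called with slide as a block (-0.48, adjusted p = 0.218) or scan date as a block (-0.40, adjusted p = 0.498). It also lost its call without the floxed array of ZT8 (-0.73), the Cre array of ZT16 (-0.70) or the Cre array of ZT20 (-0.72), all of 20 weeks (adjusted p = 0.0517, 0.0554 and 0.0534).

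Among the enzymes of polyunsaturates, Fads2, which sets the first desaturation, was lower in Cre livers. Floxed livers ran from -0.38 over 0.25 to 0.75 and Cre livers from -0.79 over -0.45 to 0.054, with 7 Cre arrays below every floxed array. The difference was -0.68 ± 0.12 (limma, adjusted p = 4.0e-04), or 1.60-fold less, and had this sign in 11 of 12 pairs. It stayed called with slide as a block (-0.49, adjusted p = 0.0145) and was -0.66, -0.25 and -0.34 within slides at matched times of 10 weeks.

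The Fads2 difference was wider at the later age. At 20 weeks the genotypes did not overlap (0.18 to 0.75 against -0.79 to -0.18), as held for 7.91% of probes. They differed by -0.998 ± 0.11 at 20 weeks (limma, adjusted p = 8.5e-04, where 29.5% of probes were called). At 10 weeks they differed by -0.36 ± 0.15 (adjusted p = 0.305, where 2.56% of probes were called). Relative to each array's median, the Fads2 Cy3 signal, read as reference, was 0.41 higher in Cre livers at 20 weeks, and its Cy5 signal was at -1.06. The part of the Cy3 change was not tested. The age by genotype term was -0.64 ± 0.19 (adjusted p = 0.0387, where 9.05% of probes were called). It was not called without the filter on dim signals (adjusted p = 0.0536), with slide as a block (-0.46, adjusted p = 0.338), with scan date as a block (-0.49, adjusted p = 0.499), in the deposited log ratio (-0.53, adjusted p = 0.099) or without any of 15 single arrays (adjusted p up to 0.0773).

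Fads1, which adds the next double bond and neighbours Fads2 in the genome, was not called. Its values ran from -0.33 over 0.53 to 0.88 in floxed and from -0.75 over 0.26 to 0.82 in Cre livers, a difference of -0.26 ± 0.16 (95% interval -0.59 to 0.071, adjusted p = 0.26). Elovl2, the elongase of the longest polyunsaturates, was likewise not called, with -0.33 over 0.34 to 1.02 in floxed and -0.13 over 0.24 to 1.10 in Cre livers and a difference of -0.13 ± 0.14 (95% interval -0.43 to 0.17, adjusted p = 0.548). A missed threshold does not show that the genotypes were alike for these genes: both intervals reach well below 0.

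Elovl5, which lengthens polyunsaturates between the desaturation steps, was higher in Cre livers by its brighter probe. That probe ran from -0.99 over 0.098 to 1.36 in floxed and from -0.25 over 0.58 to 1.54 in Cre livers, with wide overlap. The 10-week Cre value of ZT0 is missing as an outlier spot, and the fit used 23 arrays. The difference was 0.47 ± 0.11, 1.38-fold (limma, adjusted p = 0.0049), higher in 10 of 11 pairs, and 0.61 (adjusted p = 0.0075) with slide as a block. The other probe gave 0.32 ± 0.12 (adjusted p = 0.0577), higher in 9 of 12 pairs, and was called with slide as a block (0.49, adjusted p = 0.0088). Across arrays the probes correlated at r = 0.955 over 23 arrays. By the brighter probe the difference was not called at 10 weeks alone (0.58, adjusted p = 0.207) or under median centring (0.25, adjusted p = 0.532).

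**Figure D4:**
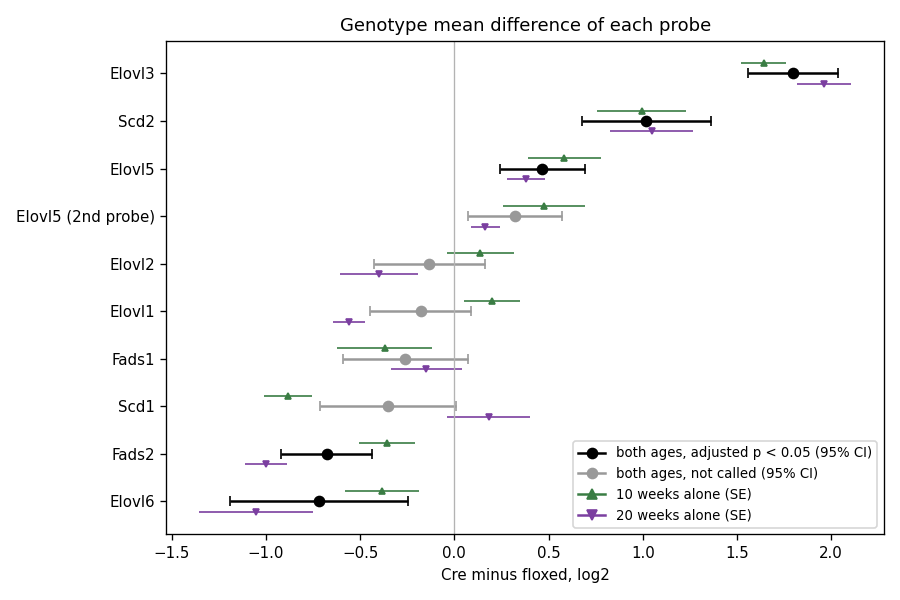
Cre minus floxed difference (log2) of the 10 probes, with 95% intervals for both ages together (black called, grey not called) and SE for 10 weeks (green) and 20 weeks (purple) alone. Elovl3 (1.80) and Scd2 (1.02) lie farthest to the right and Elovl6 (-0.72) and Fads2 (-0.68) farthest to the left.

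Of the 9 genes, 4 were higher at 20 than at 10 weeks, a comparison in which 30.5% of all probes were called (16.9% higher and 13.6% lower at 20 weeks).
Scd1 was 1.64 ± 0.17 higher at 20 weeks (limma, adjusted p = 3.8e-06), Elovl6 1.21 ± 0.23 (adjusted p = 6.5e-04), Elovl5 0.97 ± 0.11 (adjusted p = 8.5e-06; other probe 0.78, adjusted p = 1.1e-04) and Scd2 0.45 ± 0.16 (adjusted p = 0.044). The Scd2 call ended on leaving out any of 15 single arrays (adjusted p up to 0.0875), with no filter, with array weights, in the deposited log ratio and without both 20-week ZT0 arrays (0.37, adjusted p = 0.1). Arrays of different age never shared a slide, so age and slide cannot be told apart. The channel read as reference moved as well: relative to each array's median, the Cy3 signal of Scd1 was 1.29 lower at 20 weeks and that of the other 9 probes 0.60 to 0.84 lower, while the Cy5 signal of Scd1 was 0.75 higher. The part of the Cy3 change in the age differences was not tested. The other 5 genes, Elovl1, Elovl2, Elovl3, Fads1 and Fads2, differed by -0.20 to 0.32 and were not called; under median centring Fads1 (0.83, adjusted p = 0.0054) and Fads2 (0.67, adjusted p = 0.0385) were.

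The members varied together only in part. Within genotypes (each array minus its genotype's mean), Scd1 correlated with the brighter Elovl5 probe at r = 0.76 over 23 arrays, and Scd2 with Elovl6 at 0.66 and Scd1 with Elovl6 at 0.59 over 24. These are descriptions over arrays that share slides and ages. The genes whose profiles over the arrays were most like each member, with 1 probe taken per gene, were Tubb2a (r = 0.96), Ddc (0.96) and Chka (0.95) for Elovl3, and Mcm4 (0.91), Pole (0.86) and Lmo4 (0.85) for Scd2. For Fads2 they were Reep6 (0.94), Flot2 (0.93) and Gm5069 (0.92), for Scd1 Apob (0.90), Lgals1 (0.85) and Ccnc (0.85), and for Elovl5 M6pr (0.90), Slc39a8 (0.87) and Serpinb1a (0.86). For Elovl6 they were Dctpp1 (0.88), Reck (0.88) and Plekhb1 (0.87), for Elovl2 Mta1 (0.88), Atrx (0.86) and Zfp609 (0.84), for Elovl1 Rnf26 (0.87), Tnip1 (0.86) and Armc6 (0.85), and for Fads1 Parva (0.80), Setdb1 (0.78) and Shpk (0.78).

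Genes for proteins that work with these enzymes are to be read against the 21.7% of all probes called. The same share applies to the gene and marker lists of the paragraphs that follow. Of 6 partners of the elongation cycle 2 were higher in Cre livers, the dehydratases Hacd2 (0.29 ± 0.06, adjusted p = 0.0014) and Hacd3 (0.33 ± 0.11, adjusted p = 0.0394). The Hacd3 difference is uncertain: its Cy5 spot was saturated on 12 floxed and 8 Cre arrays, and 6 of 12 pairs were higher. In this list the reductases Hsd17b12 (-0.09) and Tecr (-0.35) were not called. Of 6 electron donors 1 was called, the cytochrome b5 reductase Cyb5r1 (-0.31 ± 0.08, adjusted p = 0.0082), while Cyb5a, the donor used by the desaturases, was at 0.12, with a Cy5 spot saturated on 12 floxed and 9 Cre arrays. Of 7 related elongases and desaturases measured, limma called none, with 2 at an unadjusted p under 0.05; Scd3 and Scd4, the close copies of Scd1 and Scd2, were at 0.13 and -0.02, and Fads3 at -0.18. Among 7 acyl-CoA synthetases, Acsl4, which prefers arachidonate, was higher (0.71 ± 0.13, adjusted p = 8.9e-04) and Slc27a5 lower (-0.42 ± 0.12, adjusted p = 0.0196), in all 12 pairs but with a Cy5 spot saturated on 11 floxed and 6 Cre arrays.

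Genes of the peroxisomal steps that finish docosahexaenoate were lower where they were called. Of 9 genes 4 were lower and none higher: the thiolases Acaa1a (-0.58 ± 0.06) and Acaa1b (-1.08 ± 0.13), the transporter Abcd2 (-0.58 ± 0.11) and the thioesterase Acot8 (-0.33 ± 0.08). The Cy5 spots of both thiolases were saturated on 9 floxed arrays and on no Cre array, so their floxed signals are lower bounds and the sizes of these differences are not exact. Hsd17b4 (-0.03), which carries a preceding step, was not called (saturated on 4 floxed arrays and 1 Cre array). The median of this list was -0.21.

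Of 10 genes of fatty acid synthesis, the supply of Elovl6 and Scd1, 4 were lower and none higher. They were Me1, which yields NADPH (-0.84 ± 0.14), Thrsp (-0.94 ± 0.18), the acetyl-CoA carboxylase Acacb (-0.67 ± 0.16) and Gpam, which starts triglyceride assembly (-0.40 ± 0.12). Fasn (-0.03), Acaca (0.02) and Acly (-0.05), the core of palmitate synthesis, were not called; the Fasn spot was saturated on 11 floxed and 7 Cre arrays and the Thrsp spot on 5 floxed arrays, which limits both values. The list's median was -0.31.

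Among known regulators of these genes, 8 were called. Of 12 regulators 6 were lower and 2 higher: Insig2, which holds SREBPs in the endoplasmic reticulum, was higher by 1.14 ± 0.11 (adjusted p = 7.8e-07), and Pparg (-0.55), Mlxipl, which encodes ChREBP (-0.62), and Ppara (-0.80) were lower. Srebf1, which encodes SREBP-1c, was lower by 0.41 ± 0.13 (adjusted p = 0.0265, saturated on 4 floxed arrays and 1 Cre array). The LXR gene Nr1h2 was lower by 0.30 ± 0.10 (limma, adjusted p = 0.0332), while the LXR gene Nr1h3 was at -0.03 and was not called. Among 12 PPARA targets 7 were lower and 1 higher; Acot4 (-1.21), Vnn1 (-1.21) and Acot1 (-1.44) were lower in all 12 pairs, and Pdk4 (1.502) was higher in all 12. The medians were -0.25 for the regulators and -0.38 for the PPARA targets.

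Receptors that act on AGGTCA-type elements, among whose known targets Elovl3 is counted, were part of a list of 10 genes of the clock loop and its outputs, of which 4 were higher and 3 lower in Cre livers. The REV-ERB repressor genes Nr1d2 and Nr1d1 were lower in Cre livers by 1.59 ± 0.20 and 0.93 ± 0.18 (adjusted p = 1.7e-05 and 0.0011). Npas2 was higher by 0.86, and Rora (0.15) was not called. The amplitude of Nr1d2 was 1.71 in floxed livers, which was called, and 1.11 in Cre livers, and that of Nr1d1 was 1.55, also called, and 0.59; their rhythms did not pass the test of a difference (adjusted p = 1 and 0.776). Of the 10 genes of this list 7 were called rhythmic in floxed livers, where 1.4% of all probes were. For 1 of them, Arntl, the difference in rhythm was called, as for 0.0287% of all probes. A link between the genes of this list and Elovl3 was not tested.

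**Figure D5:**
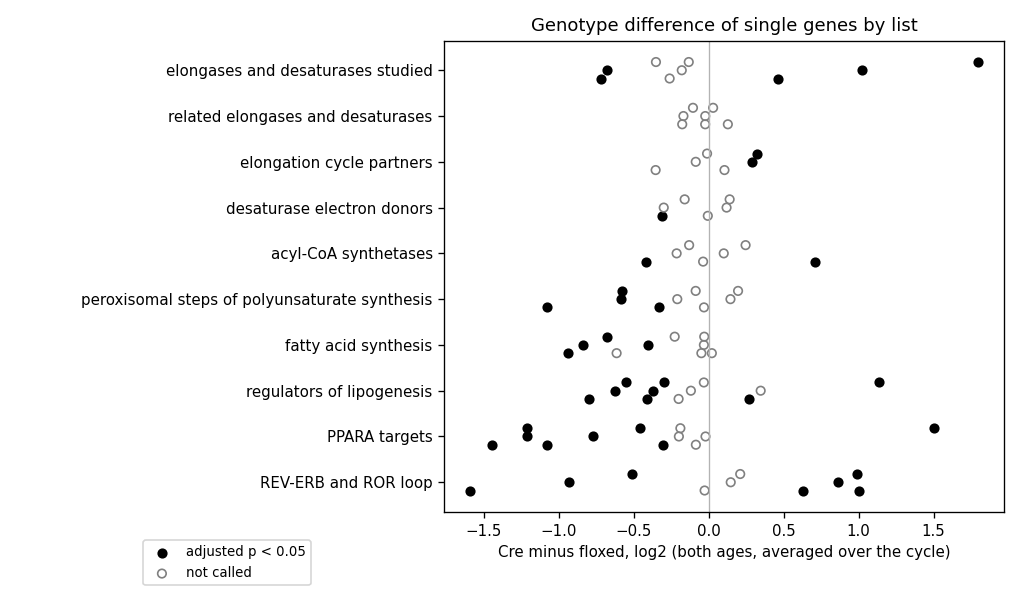
Cre minus floxed difference (log2) of each measured gene of the 9 members and 9 related lists, filled where the adjusted p was under 0.05 and open otherwise; the height within a row has no meaning. The called genes of the peroxisomal and fatty acid synthesis lists all lie below 0, with medians of -0.21 and -0.31, while the members lie on both sides.

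Some members are also known from adipose tissue, and its markers were checked. Of 6 adipocyte markers measured, Cfd (-3.05) and Cidec (-2.26) were lower in Cre livers and Fabp4 (0.50) higher. Adipoq (-0.14), Plin1 (-0.04) and Lep (-0.0044) were not called. Sums over the 7 markers on the array were 44.7 to 257 in floxed and 35 to 72.7 in Cre livers. Of these 7, 2 were above background in Cy5 on every array. How far dim signal limits the uncalled values was not tested. Of 3 brown adipocyte markers measured, Cidea (-1.81) and Cox7a1 (-0.41) were lower, and Dio2 (-0.15) was not called. Sums over the 4 on the array were 8.61 to 139.5 in floxed and 7.97 to 16.3 in Cre livers. Of these 4, 1 was above background in Cy5 on every array, and Ucp1, the defining gene, on no array. Elovl3 moved opposite to Cfd, Cidec, Cidea and Cox7a1 and in the direction of Fabp4. The part of these markers in the Elovl6 and Fads2 differences was not tested. Of 5 hepatocyte markers none was called by limma, and none had an unadjusted p under 0.05, but the Cy5 spots of Alb, Apoa1, Cps1 and Tat were saturated on 6 to 12 arrays of each genotype, so these values do not show equal levels.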

How the data were processed

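The authors deposited, per the file headers, each spot's intensity (mean and background) in both channels (Agilent Feature Extraction 9.1.3.1), a normalised log10 ratio of Cy5 over Cy3 and quality marks; the series matrix holds the same log10 ratio (largest difference 0). How that software's ratio was further treated is not given in the sources used here.

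Mean signals were corrected with normexp (offset 50) and normalised by loess within each array in limma 3.58.1 (R 4.3.3), with control spots at weight 0 and outlier-marked spots missing. Probes with Cy3 well above background on at least 4 arrays were kept. Each probe was fitted to genotype by cosine and sine of 24 h plus age on all 24 arrays; fits by time, age alone and age by genotype followed. Calls had an adjusted p under 0.05 (Benjamini-Hochberg over all probes). The code was tested on simulated data. Probes took symbols from their accession or the file's gene name through RefSeq tables (24375 by accession). A gene's value is that of its brightest probe. Up to 4 called genes per list, those of smallest p, were named, and other genes by role. Likeness is Pearson's r over arrays. The members and lists were chosen with earlier results of these data known. Precision is limited by the number of arrays. Alternatives covered background, normalization, filters, saturation, slide, scan date, weights and left-out arrays. Some genes of these lists are counted but not reported here by name.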

Additional observations from a re-analysis of the deposited data

Results flagged for a closer look

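Among 40 groups of up to 6 arrays (probe, genotype and age), 3 held an array whose gap to the next exceeded Dixon's critical value, and chance gives about 1 in 20. In 10-week floxed livers Elovl6 at ZT12 was at 0.74, with the next value at -0.19, and Scd2 at ZT8 was at -1.46, with the next at -0.72. In 20-week floxed livers Scd2 at ZT12 was at 0.31, with the next at -0.31.

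The genotype difference changed with age for 3 members by the interaction test of limma: Scd1 (1.07, adjusted p = 0.0195), Elovl1 (-0.76, adjusted p = 0.0261) and Fads2 (-0.64, adjusted p = 0.0387), where 9.05% of all probes were called. None of these 3 terms stayed called with slide (adjusted p = 0.14, 0.218 and 0.338) or scan date as a block (adjusted p = 0.488, 0.498 and 0.499, by limma), and at 20 weeks the genotypes lie mostly on different slides. The genotype difference of Elovl3 changed with time of day, with an amplitude of 1.62 for the difference in rhythm (adjusted p = 0.0012).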

How the results depend on the processing

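The Elovl3 mean difference stayed called in the same direction under all 41 alternatives (adjusted p up to 0.003) and its floxed rhythm under all 37 (up to 3.4e-04). Scd2 lost its call under 2 alternatives (median centring and 10 weeks alone), Elovl5 under the same 2, Fads2 under 1 (10 weeks alone) and Elovl6 under 12. The number of members called, 5 as reported, became 2 under median centring (Elovl3 and Fads2) and 2 at 10 weeks alone (Elovl3 and Scd1, which is not among the 5), and ran from 4 to 5 on leaving out each array. Rhythmic members in floxed livers numbered 2 with array weights and 2 with scan date blocked (1 to 2 on leaving out each array), and members with a difference in rhythm 0 under median centring and 0 with saturated spots missing. Over all probes, called floxed rhythms ran from 34 to 925, against 389 as reported. Called differences in rhythm ran from 0 to 20, against 8. Members with an age by genotype term numbered 1 in the deposited log ratio, 5 under median centring, 0 with slide and 0 with scan date as a block, and 1 to 4 on leaving out each array. Over all probes, called terms of this kind ran from 2 to 11720 under the alternatives, against 2520 as reported. On leaving out each array they ran from 1072 to 5894, so the member counts move with a wide background. Called members at ZT8, ZT12 and ZT16 were 0 under median centring; the counts at ZT12 and ZT16 ran from 0 to 1 on leaving out each array; at ZT12 Elovl3 has a single Cre value, without which there is none to compare. With the 12 collections of the same age and time as a replicate block, the genotype differences of Elovl3 (1.68, adjusted p = 0.003), Scd2 (1.02), Fads2 (-0.68), Elovl6 (-0.72) and Elovl5 (0.46) stayed called and the other Elovl5 probe was called (0.32, adjusted p = 0.0487); replicate numbers only name arrays.

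Signs turned for values that were not called. Mean differences turned for Elovl1 (0.0229 with slide and 0.0059 with scan date as a block, 0.20 at 10 weeks), Elovl2 (0.0102, 0.0306 and 0.14 likewise) and Scd1 (0.18 at 20 weeks). Age differences turned for Elovl3 (0.38), Elovl1 (0.46) and Elovl2 (0.41) under median centring, for Elovl1 (0.0651) and Elovl2 (0.0081) with array weights and for Elovl2 (0.0188) without both 20-week ZT0 arrays. Age by genotype terms turned for Scd2 (-0.75), Elovl3 (-0.48) and Fads1 (-0.74) under median centring, for Fads1 (-0.0227), Elovl5 (0.28) and Elovl6 (1.08) with slide as a block, for Elovl5 (0.0559) and Elovl6 (0.44) with scan date as a block and for Scd2 (-0.13) without both 20-week ZT0 arrays. The ZT0 difference of Elovl3 became -0.17 without both 20-week ZT0 arrays. On leaving out each array the Elovl1 age difference ran from -0.0804 to 0.0659, that of Elovl2 from -0.13 to 0.0081, the Scd2 age by genotype term from -0.12 to 0.22 and the ZT0 difference of Elovl3 from -0.24 to 0.46. The causes were not tested. Keeping outlier spots and leaving out the 20-week ZT0 pair were chosen after seeing the data, as were all alternatives of the age difference and of the differences by time. Over all probes, called genotype differences ran from 713 (10 weeks alone) and 901 (median centring) to 10361 (array weights), against 6053 as reported. Scaling between arrays leaves log ratios as they are and changed none.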
